A study of Mus musculus with 7 samples.

Results

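Ribosome biogenesis genes were followed through the branch point at which mouse thymocytes take the αβ or the γδ path. The members were 45 genes listed by symbol, all of which were found among the 32286 features of the matrices and had a mean level of at least 5 CPM (UMIs of a gene per 1000000 UMIs) over the libraries. A UMI, or unique molecular identifier, tags 1 captured transcript molecule. Single-cell 3' RNA sequencing had been run on CD4- and CD8- (double-negative, DN) thymocytes in 7 libraries, with 1 library per group and no replicates. The WT groups were from C57BL/6 mice of 6 to 8 weeks, with thymi of both sexes pooled and cells bearing CD4 or CD8 removed on magnetic beads. They were DN3a cells, which have not yet been selected on a receptor, DN3b γδ− and DN4 γδ− cells, which have passed β-selection, DN3b γδ+ cells, which carry a γδ T cell receptor, and DN4 γδ+ cells, which are immature γδ T cells. The other 2 groups, DN3 γδ− and DN3 γδint, were from C57BL/6 mice of genotype Lat-/-TCRd-H2BEGFP, whose age the labels do not give. These lack the adaptor LAT in every cell and carry a fluorescent reporter in Trdc, the δ chain constant gene, and "int" marks an intermediate amount of γδ receptor. Sorting used CD71, the transferrin receptor, which is high on dividing cells, to part DN3b γδ− from DN3a cells and to take DN4 γδ− cells, so DN3a, the reference of the ratios, and both β-selected groups were in part gated on a trait that goes with growth. Every library also held 500 spiked splenic B cells.

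Ribosomes are built in the nucleolus. RNA polymerase I transcribes the ribosomal RNA precursor, small nucleolar ribonucleoproteins (snoRNPs) guide its chemical modification, and the small subunit processome and a series of large subunit assembly factors fold and cut it while ribosomal proteins join. Cells that grow and divide quickly, as thymocytes do after β-selection, are known to raise this work, and the transcription factor Myc is a well-known activator of many of its genes.

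A barcode with at least 200 genes and at most 15% mitochondrial UMIs was taken as a thymocyte when it held at most 1 UMI of Cd79a, Cd79b and Ms4a1 together, which left 71081 of 90016 barcodes, from 5274 in Lat-KO DN3 γδint to 18515 in DN3b γδ−. Cd79b had 40.9 CPM in the kept barcodes of DN3a and 49.3 in those of Lat-KO DN3 γδ−, against 8.65 in DN4 γδ−. The rule kept 6818 of 7876 barcodes of good quality in DN3a and 6468 of 8071 in Lat-KO DN3 γδ−. B cell barcodes numbered 134 and 181 there. The rule can thus also have left out thymocytes, and its effect was not tested. Median depth ran from 5738 to 18506 UMIs per thymocyte barcode, and 925 of 89086 barcode sequences occurred in more than 1 library. The 10 T cell markers were all detected in every library. Lat had 357 to 648 CPM in the WT libraries, 4.83 and 0.899 in Lat-KO DN3 γδ− and γδint, as the labels say. Haemoglobin genes (4 erythroid markers, summed) had 170 CPM in DN4 γδ− and 0.149 to 35.7 CPM elsewhere, and the 7 myeloid markers had 99.7 to 192 CPM. Of the 5 NK markers, which γδ T cells also use in part, Ncr1 was at 0 in every library and the sum ran from 7.46 CPM in DN4 γδ− to 345 in DN4 γδ+. The 5 plasmacytoid markers had 1062 CPM in DN4 γδ+ and 836 in DN3a, where the members were low, against 266, 275 and 336 in DN3b γδ−, DN4 γδ− and DN3b γδ+, where they were high, and 622 and 534 in Lat-KO DN3 γδ− and γδint, with Siglech, a defining marker, at 0 in DN3a and DN4 γδ+. The plasmacytoid list includes Ccr9, which the study reports in a subset of DN4 γδ+ thymocytes. The part of the plasmacytoid markers in the results was not tested. With 1 library per group no difference was tested. UMIs were summed over the barcodes of a library, and the 95% intervals, exact and binomial for log2 ratios, cover counting error only. In such sums fewer cells of a kind and less RNA per cell cannot be told apart.

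The members together took 0.578% of thymocyte UMIs in DN3a, 1.20% and 1.14% in DN3b and DN4 γδ−, 0.955% and 0.404% in DN3b and DN4 γδ+, and 0.553% and 0.901% in Lat-KO DN3 γδ− and γδint. The share was thus highest in both β-selected libraries and lowest in DN4 γδ+, below that of DN3a. Ncl and Npm1 alone made up 40.5% to 52.8% of these UMIs, so the gene-by-gene medians that follow, in which each member counts once, are the fuller description. Npm1 has processed pseudogenes, which can make its count less certain, and their part in it was not tested.

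Against DN3a, all 45 members were higher in DN3b γδ−, with a median log2 ratio of 0.83, a 1.78-fold difference, and every counting interval lay above 0. Of all 9100 genes with a ratio, 44.6% were higher, and their median was -0.11. At least 2-fold higher were 15 members, beside 9.87% of all genes. DN4 γδ− gave the same direction in all 45 (all genes 38.6%), with a median of 0.69 against -0.23 for all genes and 7 members at least 2-fold higher (all genes 7.59%). DN3b γδ+ had 41 members higher and 4 lower (all genes 44.7% higher), a median of 0.58 against -0.11, and 2 members past 2-fold (all genes 10.2%). Scaling by TMM factors, which take the bulk of genes as unchanged, would raise every ratio to DN3a by 0.36, 0.36 and 0.32 in these 3 libraries and would place all 45 members above DN3a in DN3b γδ+ as well. All genes would rise by the same amounts as the members, and the share of all genes above DN3a under TMM factors is not given. The members at least 2-fold higher would then number 37, 26 and 20, beside 18.3%, 14.6% and 17.1% of all genes. In DN3b γδ+ that count was also 6 with each barcode weighed the same and 10 without the 8% of barcodes with the most UMIs, and in DN3b γδ− 23 without them. The shares of all genes under these settings are not given, so these counts cannot be read against a background.

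DN4 γδ+ went the other way. There 43 of the 45 members were lower than in DN3a, where 51.5% of all genes were lower, the median was -0.60 against -0.018 for all genes, and 6 members were at least 2-fold lower (all genes 7.86%). From DN3b γδ+ to DN4 γδ+ all 45 were lower (all genes 44.1%), the median was -1.27, and 34 were at least 2-fold lower, against 6.62% of all genes. The step from DN3b γδ− to DN4 γδ− was far smaller, with a median of -0.18 (all genes -0.12), 36 members lower beside 66.8% of all genes, and none past 2-fold in either direction (all genes 0.648% higher and 1.54% lower). Set directly against DN3b γδ−, DN3b γδ+ had 38 members lower (all genes 53.6%) and a median of -0.38 (all genes -0.040), with Ebna1bp2, Nip7 and Nop56 the highest and Polr1b, Wdr12 and Wdr43 the lowest. In barcodes without UMIs of the cycle genes Mki67 and Top2a, described further on, the median of this comparison was -0.096 (all genes -0.022). On the 26 and 42 barcodes without any of 12 cycle genes it was 0.40 (all genes 0.0034), with quartiles of -0.19 and 0.98. Most of the members' counting intervals held 0 on these few barcodes.

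The Lat-KO libraries differed from each other. In DN3 γδ− the members lay around the DN3a level, none of them past 2-fold (all genes 3.38% higher and 0.923% lower), with 24 higher and 21 lower, a median of 0.022, while 74.0% of all genes were higher and their median was 0.23. In DN3 γδint 42 members were higher (all genes 79.0%) with a median of 0.75, but the median of all genes was also raised, at 0.46, and 9 members were at least 2-fold higher beside 13.9% of all genes, while 1 was at least 2-fold lower beside 4.63%. Ribosomal protein genes took 17.3% of thymocyte UMIs in that library and 27.0% or more in each of the others, so that a larger share of its UMIs fell on other genes. Scaled by TMM factors, the γδint median was 0.33 with 33 members higher and 12 lower and 0 at least 2-fold higher (all genes 4.19%), and the DN3 γδ− median was -0.15 with 17 higher and 28 lower. These factors shift all genes of a comparison alike, so the distance between the members and all genes was the same as without them. The share of all genes higher under TMM factors is not given, so such counts of members higher cannot be read against a background. Without ribosomal protein and mitochondrial genes in the total, 2 members were at least 2-fold higher in γδint, a count without a share of all genes to set beside it. Against Lat-KO DN3 γδ−, the γδint median was 0.60 (all genes 0.20), 43 members were higher (all genes 68.5%) and 7 were past 2-fold (all genes 4.95%), and under TMM factors the median was 0.35 with 41 higher. The spiked B cells of the same libraries gave a member median of 0.57 for this comparison.

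**Figure D1:**
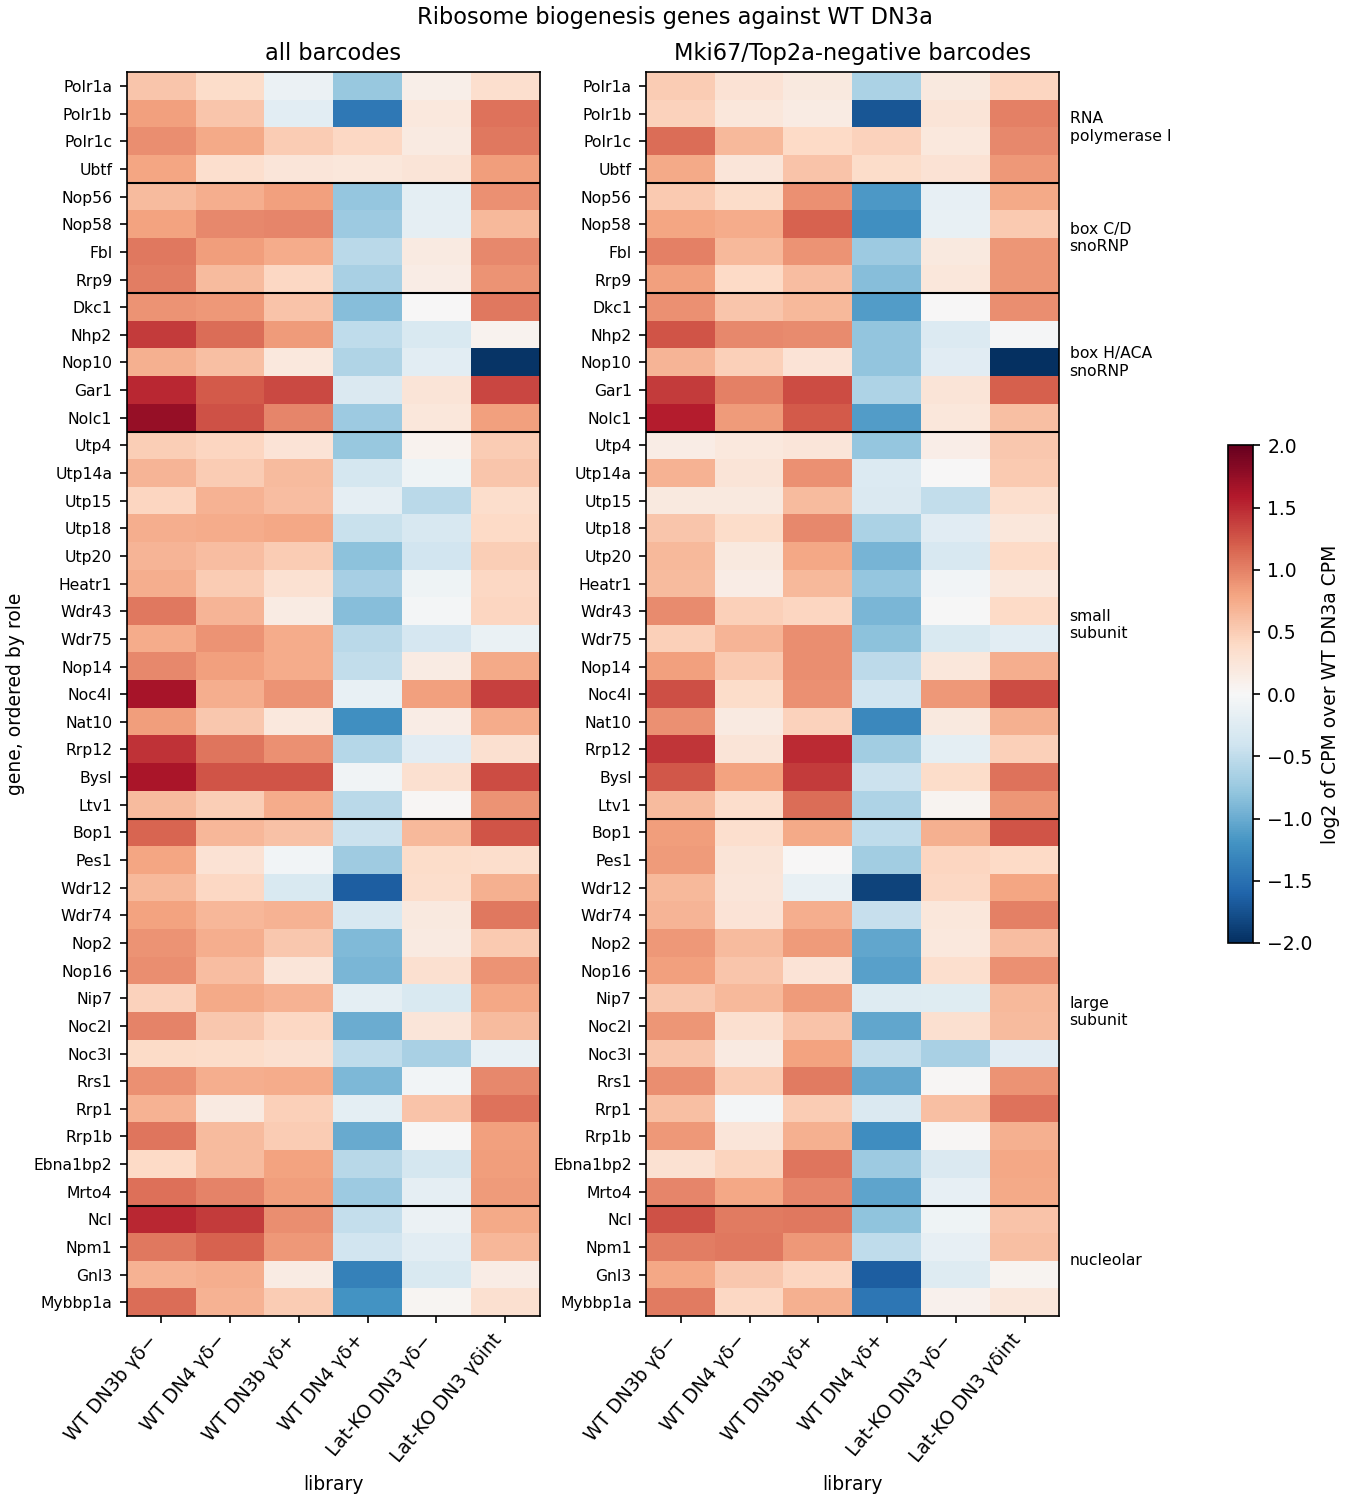
Colour gives the log2 ratio of each member's CPM to its CPM in WT DN3a (scale from -2 to 2), for all thymocyte barcodes (left) and for those with no Mki67 or Top2a UMI (right); columns are the other 6 libraries and rows the 45 genes, ruled off by role. DN3b γδ− is red in every row, DN4 γδ+ is blue except in Polr1c and Ubtf, and Nop10 in Lat-KO DN3 γδint is the single darkest blue cell, at -1.97 for all barcodes.

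RNA polymerase I genes had unlike orders over the libraries. Polr1b, which encodes the second largest subunit of the enzyme, had 11.0 CPM in DN3a, 19.3 and 16.2 in DN3b and DN4 γδ−, 9.51 and 4.07 in DN3b and DN4 γδ+, and 12.8 and 23.4 in Lat-KO DN3 γδ− and γδint. It was lowest in DN4 γδ+, with a log2 ratio to DN3a of -1.44 (95% interval -1.64 to -1.23), and it was also a little under DN3a in DN3b γδ+, at -0.21 (95% interval -0.34 to -0.074), a direction that TMM factors turned. The largest subunit gene, Polr1a, was also lowest in that library and ran from 14.5 CPM in DN4 γδ+ to 36.0 in DN3b γδ−. Ubtf, the factor that opens ribosomal DNA for the polymerase, had 98.3 CPM in DN3a, 169.8 and 125 in DN3b and DN4 γδ−, 116 and 115 in DN3b and DN4 γδ+, and 118 and 176 in Lat-KO DN3 γδ− and γδint. DN4 γδ+ here lay above DN3a, by 0.22 (95% interval 0.17 to 0.28), and at -0.0099 against DN3b γδ+. Polr1c, a subunit that polymerase I shares with polymerase III, had 25.9 CPM in DN3a and 34.7 in DN4 γδ+, a log2 ratio of 0.42 (95% interval 0.33 to 0.52). Ubtf and Polr1c were the only members above DN3a in that library.

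The box C/D snoRNP, which methylates ribosomal RNA, is formed by Fbl, the methyltransferase, with the core proteins Nop56 and Nop58, and Rrp9 belongs to a related particle needed in processing. Nop58 had 184 CPM in DN3a, 322 and 358 in DN3b and DN4 γδ−, 361 and 111 in DN3b and DN4 γδ+, and 162 and 288 in Lat-KO DN3 γδ− and γδint. Its level was about as high in DN3b γδ+ as in DN4 γδ− and lowest in DN4 γδ+, where the log2 ratio to DN3b γδ+ was -1.71 (95% interval -1.74 to -1.67). Nop56 followed it, with 291 CPM in DN3b γδ+ and 97.0 in DN4 γδ+. These were 2 of the 7 members that were higher in DN3b γδ+ than in DN3b γδ−, by 0.19 (95% interval 0.17 to 0.20) for Nop56 and 0.16 (95% interval 0.15 to 0.18) for Nop58. Fbl and Rrp9 were highest in DN3b γδ−, at 397 and 70.2 CPM against 191 and 34.6 in DN3a.

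The box H/ACA snoRNP turns uridines of ribosomal RNA into pseudouridine. It has Dkc1 as its enzyme and Nhp2, Nop10 and Gar1 as its other core proteins, and Nolc1 is the nucleolar chaperone that meets both kinds of snoRNP. This group had the highest median in DN3b γδ−, at 1.39 on the log2 scale over its 5 genes. Nolc1 had 91.5 CPM in DN3a, 305 and 222 in DN3b and DN4 γδ−, 181 and 55.1 in DN3b and DN4 γδ+, and 107 and 161 in Lat-KO DN3 γδ− and γδint. It was the member with the highest ratio in DN3b γδ−, 1.74 (95% interval 1.69 to 1.78), and it lay under its DN3a level in DN4 γδ+ alone. Gar1 had 73.4 CPM in DN3a, 209 and 172 in DN3b and DN4 γδ−, 182 and 59.8 in DN3b and DN4 γδ+, and 87.5 and 186 in Lat-KO DN3 γδ− and γδint. Gar1 and Bysl were the only members past 2-fold against DN3a in each of DN3b γδ−, DN4 γδ−, DN3b γδ+ and Lat-KO DN3 γδint. Dkc1 ran from 70.4 to 263 CPM, the latter in Lat-KO DN3 γδint, and Nhp2 from 117 to 435.

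Nop10 stood apart in 1 library. The gene lies at chr2:112261926-112263269 on the plus strand (GRCm38) and had 411 CPM in DN3a, 674 and 623 in DN3b and DN4 γδ−, 477 and 271 in DN3b and DN4 γδ+, and 354 and 105 in Lat-KO DN3 γδ− and γδint. Lat-KO DN3 γδint was the low one, by -1.97 (95% interval -2.02 to -1.92) against DN3a and -1.75 (95% interval -1.80 to -1.70) against Lat-KO DN3 γδ−, while its partners Dkc1 and Gar1 were there at 1.06 and 1.34 against DN3a. In the spiked B cell barcodes, Nop10 had 25 UMIs in the same library and 161 in Lat-KO DN3 γδ−, a log2 ratio of -1.90 (95% interval -2.57 to -1.28). The difference was thus about as large in the B cells as in the thymocytes of that library. The share of UMIs in ribosomal protein genes was low in the same B cells too, at 19.1% against 28.6% to 34.2% in the other libraries. Genes with a principal transcript under 1000 bases, 659 in number, had a median log2 ratio of γδint to Lat-KO DN3 γδ− of -0.51, and the 2008 genes of 1000 to 2000 bases one of 0.37. The longest principal transcript annotated for Nop10 has 1109 bases, which by annotation places it among the latter. Whether this is the transcript expressed was not tested. Mrto4, the 1 member under 1000 bases, had a log2 ratio of 1.04 in γδint against Lat-KO DN3 γδ−. Ribosomal protein genes were not left out of the sets of genes by length. Nhp2 was the other core gene that did not share the higher level of its partners in γδint, at 0.077 (95% interval 0.030 to 0.12) against DN3a.

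Small subunit genes code for parts of the processome (Utp4, Utp14a, Utp15, Utp18, Utp20, Heatr1, Wdr43, Wdr75, Nop14 and Noc4l), for Nat10, which acetylates ribosomal RNA, and for the late or export factors Rrp12, Bysl and Ltv1. Bysl had 13.8 CPM in DN3a, 42.8 and 33.1 in DN3b and DN4 γδ−, 32.9 and 13.1 in DN3b and DN4 γδ+, and 17.2 and 34.1 in Lat-KO DN3 γδ− and γδint. The 3 WT libraries past DN3a other than DN4 γδ+, and Lat-KO DN3 γδint, lay at more than 2 times the DN3a level, and DN4 γδ+ differed from DN3a by only -0.069 (95% interval -0.21 to 0.073). Noc4l had 21.0 CPM in DN3a, 65.8 and 34.7 in DN3b and DN4 γδ−, 39.3 and 18.9 in DN3b and DN4 γδ+, and 37.1 and 54.3 in Lat-KO DN3 γδ− and γδint. It was among the highest ratios in DN3b γδ−, 1.64 (95% interval 1.56 to 1.73), and was the highest in both Lat-KO libraries, at 0.82 and 1.37. Rrp12, the member with the lowest mean CPM, had 7.52 CPM in DN3a and 20.5 in DN3b γδ−, a log2 ratio of 1.45 (95% interval 1.30 to 1.60). Nat10 was at least 2-fold lower in DN4 γδ+, with 7.46 CPM against 17.6 and a log2 ratio of -1.23 (95% interval -1.39 to -1.08). Utp15, Utp4, Ltv1, Utp14a, Utp20, Heatr1 and Utp18 had the lowest ratios of this group in DN3b γδ−, from 0.44 for Utp15 to 0.73 for Utp18. Wdr75, Nop14 and Wdr43 had 0.75, 0.97 and 1.05 there. In Lat-KO DN3 γδ− the lowest ratios of all members belonged to Noc3l, Utp15 and Utp20, at -0.65, -0.54 and -0.39, and in γδint Noc3l and Wdr75 were lowest after Nop10, at -0.14 and -0.13.

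Among large subunit genes, Pes1, Bop1 and Wdr12 encode the 3 proteins of the PeBoW complex, and their levels had unlike orders. Wdr12 had 86.9 CPM in DN3a, 137 and 116 in DN3b and DN4 γδ−, 70.1 and 27.8 in DN3b and DN4 γδ+, and 111 and 143 in Lat-KO DN3 γδ− and γδint. It had the lowest ratio of any member in DN4 γδ+, -1.64 (95% interval -1.72 to -1.57), and in DN3b γδ+, -0.31 (95% interval -0.36 to -0.26). Bop1 had 29.2 CPM in DN3a, 65.6 and 46.2 in DN3b and DN4 γδ−, 43.6 and 21.7 in DN3b and DN4 γδ+, and 45.9 and 69.6 in Lat-KO DN3 γδ− and γδint, so that its DN4 γδ+ level was -0.43 against DN3a and its Lat-KO DN3 γδint level was above every WT library. Pes1 had 40.2 CPM in DN3a, 38.6 in DN3b γδ+ and 24.5 in DN4 γδ+, with a log2 ratio in DN3b γδ+ of -0.057 (95% interval -0.13 to 0.013), the only one of the 4 members lower in that library whose interval held 0. All 4 (Wdr12, Polr1b, Polr1a and Pes1) lay above DN3a under TMM factors. The ribosomal RNA methyltransferase Nop2 and the assembly factors Nop16, Noc2l, Rrs1 and Mrto4 had ratios of 0.90 to 1.11 in DN3b γδ− and of -0.99 to -0.73 in DN4 γδ+, and Rrp1b was at 1.08 in the first. Wdr74, Nip7, Noc3l, Rrp1 and Ebna1bp2 were the flatter ones, between 0.39 and 0.80 in DN3b γδ− and between -0.55 and -0.20 in DN4 γδ+. Rrp1 was lowest of all members in DN4 γδ−, at 0.18, followed by Pes1 and Ubtf, at 0.28 and 0.34.

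The nucleolar proteins were nucleolin (Ncl), which binds the ribosomal RNA precursor, nucleophosmin (Npm1), which helps to give the nucleolus its form, nucleostemin (Gnl3) and Mybbp1a, a Myb-binding nucleolar protein. Ncl had 799.6 CPM in DN3a, 2273 and 2100.4 in DN3b and DN4 γδ−, 1529 and 576 in DN3b and DN4 γδ+, and 740.3 and 1352 in Lat-KO DN3 γδ− and γδint. The β-selected libraries were the highest, by 1.51 (95% interval 1.49 to 1.52) and 1.39 (95% interval 1.38 to 1.41) against DN3a, the second being the highest ratio of any member in DN4 γδ−. Npm1 had 1734 CPM in DN3a, 3607 and 3926 in DN3b and DN4 γδ−, 3147 and 1333 in DN3b and DN4 γδ+, and 1497 and 2760.5 in Lat-KO DN3 γδ− and γδint, with DN4 γδ− on top. Gnl3 and Mybbp1a were at least 2-fold lower in DN4 γδ+ than in DN3a, with 56.7 and 34.1 CPM against 144 and 77.8 and log2 ratios of -1.35 (95% interval -1.40 to -1.29) and -1.19 (95% interval -1.26 to -1.12). With Wdr12, Polr1b, Nat10 and Rrp1b they made up the 6 members past 2-fold in that library, whereas Ncl and Npm1 lay at -0.47 and -0.38 there. Over all roles, the 3 highest ratios to DN3a in DN4 γδ− were those of Ncl, Nolc1 and Bysl (1.26 for Bysl), and in DN3b γδ+ those of Gar1, Bysl and Nolc1 (1.31, 1.26 and 0.98). In Lat-KO DN3 γδ− Bop1 and Rrp1 came after Noc4l, at 0.65 and 0.57. Nolc1, Noc4l and Bysl had the highest ratios in DN3b γδ−, and Noc3l, Ebna1bp2 and Utp15 the lowest. For DN4 γδ+ the highest were Polr1c, Ubtf and Bysl and the lowest Wdr12, Polr1b and Gnl3. Noc4l, Gar1 and Bysl were highest in Lat-KO DN3 γδint.

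**Figure D2:**
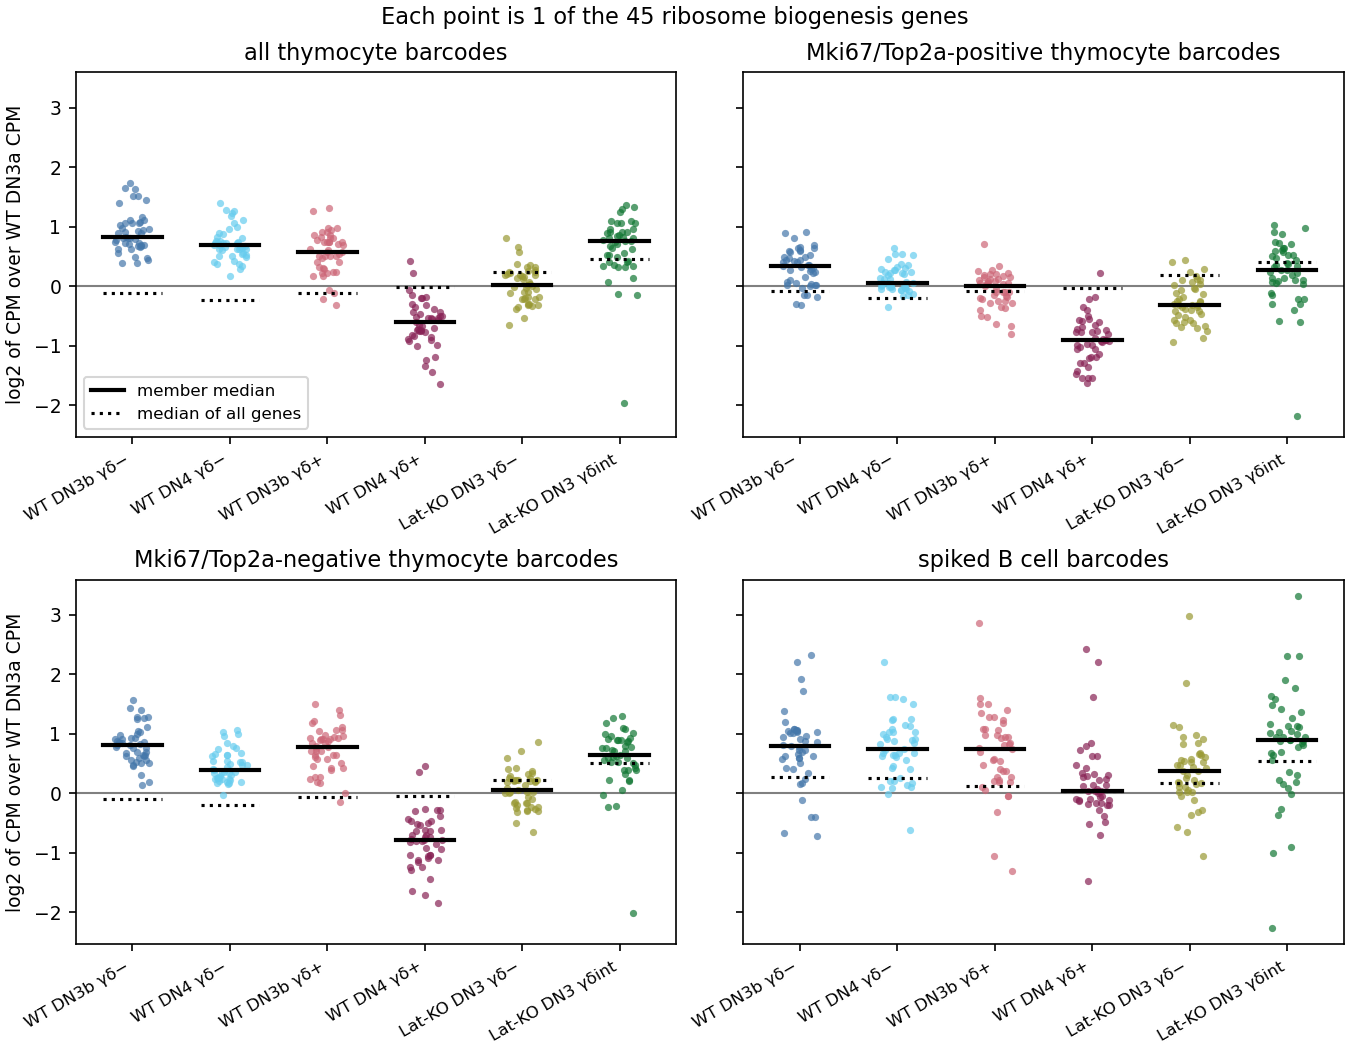
Each point is the log2 ratio of 1 member's CPM to WT DN3a, in 4 sets of barcodes; solid bars are member medians and dotted bars medians of all genes. In all thymocyte barcodes the points of DN3b γδ− and DN4 γδ− lie wholly above 0 and those of DN4 γδ+ below it apart from 2, and in the spiked B cell barcodes the member medians ran from 0.035 in DN4 γδ+ to 0.90 in Lat-KO DN3 γδint. Under TMM factors the Lat-KO DN3 γδ− median in all thymocyte barcodes was below 0.

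A further list of 92 ribosome biogenesis genes held none of the members. The number of them past the CPM limit, at most 92, is not given. Of those past it, 76 were higher in DN3b γδ− than in DN3a (all genes 44.6%) and 13 were past 2-fold (all genes 9.87%), with a median log2 ratio of 0.53. The medians were 0.41 in DN4 γδ−, 0.29 in DN3b γδ+, -0.30 in DN4 γδ+ with 78 genes lower (all genes 51.5%), and 0.10 and 0.61 in Lat-KO DN3 γδ− and γδint. They had the sign of the member median in each library and were nearer to 0 than it in every library but Lat-KO DN3 γδ−. Ribosomal protein genes, the products that these factors assemble (78 genes past the CPM limit), had other values, with medians of 0.027, 0.086, -0.15 and -0.065 in the 4 WT libraries in the same order and -0.23 and -1.60 in the Lat-KO ones.

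Myc did not have the order of the members. It had 97.3 CPM in DN3a, 51.3 and 71.6 in DN3b and DN4 γδ−, 30.8 and 19.7 in DN3b and DN4 γδ+, and 55.0 and 72.3 in Lat-KO DN3 γδ− and γδint. DN3a, where the members were low, had the highest Myc level, and DN4 γδ+ was lowest in both. The letters CACGTG, the E-box that Myc is known to bind with its partner Max, were searched in the RefSeq promoter windows of the members (build GRCm38.p6, 250 bases before to 50 after an annotated start). The letters read the same on both strands. Windows were matched for 40 members, and Fbl, Rrp12, Bop1, Rrs1 and Npm1 had no entry. The motif was found for 8 of the 40 genes (20%), beside 12.6% of 7277 genes past the CPM limit that were matched. Counted by window, since a gene can have several, it was in 8 of 49 windows of the members (16.3%), in 10.7% of 9270 windows of genes past the CPM limit and in 7.15% of all 32851 windows of that length. Relative to the annotated start on which its window was built, the motif lay before it in Nop2 and Utp18. In the other 6 it lay in the 50 bases after that start, which need not be the start of the longest annotated transcript. The 30 bases around each match are printed in the direction of the gene, to show how the flanks differ around the same core, with the motif in capitals.
Nop2 (chr6:125131811-125131840, plus strand): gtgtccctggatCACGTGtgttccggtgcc
Utp18 (chr11:93885769-93885798, minus strand): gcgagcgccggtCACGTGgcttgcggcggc
Pes1 (chr11:3963965-3963994, plus strand): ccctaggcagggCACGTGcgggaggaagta
Utp4 (chr8:106893643-106893672, plus strand): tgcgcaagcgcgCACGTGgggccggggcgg
Wdr43 (chr17:71616220-71616249, plus strand): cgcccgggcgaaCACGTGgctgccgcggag
Ltv1 (chr10:13193092-13193121, minus strand): gccctgtggaccCACGTGtggagctgccgg
Utp20 (chr10:88826765-88826794, minus strand): cccagcggcactaactaCACGTGaggaaaa
Mybbp1a (chr11:72441347-72441376, plus strand): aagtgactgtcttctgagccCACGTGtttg
Members with the motif had a median log2 ratio to DN3a of 0.76 in DN3b γδ− and -0.79 in DN4 γδ+, and the 32 without it had 0.81 and -0.58. In Lat-KO DN3 γδint the medians were 0.46 and 0.79. The ranges of the groups overlapped in all 6 libraries.

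Since the libraries differed in how many cells were dividing, barcodes were parted by Mki67 and Top2a, a proliferation antigen and the topoisomerase that untangles sister chromatids. Barcodes with at least 2 UMIs of the pair were called positive and those with 0 negative. Positive barcodes made up 6.16% in DN3a, 88.4% and 83.6% in DN3b and DN4 γδ−, 80.8% and 18.4% in DN3b and DN4 γδ+, and 8.87% and 23.3% in Lat-KO DN3 γδ− and γδint. With every barcode thinned to 4000 UMIs and the 343 to 1769 shallower ones of each library left out, these were 2.29%, 69.9%, 63.0%, 60.8%, 14.8%, 4.70% and 19.2%. Of the spiked B cell barcodes, 0% in DN3a and 21.8% in DN4 γδ− passed the same limit, with median depths of 3379.5 and 3276 UMIs.

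Within a library, the member median was higher in positive than in negative barcodes in 6 of 7 libraries, although in DN3b γδ− it was -0.020 once states were called at 4000 UMIs. In DN3a all 45 were (all genes 45.3%), with a median log2 ratio of 0.73, and 6 were past 2-fold (all genes 5.36%), led by Rrp12, Bysl and Utp20 at 1.48, 1.23 and 1.20, with Rrp1, Polr1c and Pes1 lowest. The medians were 0.23 in DN3b γδ− (42 members higher, all genes 47.4%), 0.37 in DN4 γδ− (45 higher, all genes 47.9%), 0.66 in DN4 γδ+ (43 higher, all genes 44.4%), 0.41 in Lat-KO DN3 γδ− (44 higher, all genes 40.2%) and 0.39 in Lat-KO DN3 γδint (44 higher, all genes 38.7%). TMM factors gave 0.67 in DN3b γδ− and 0.81 in DN4 γδ−. With states called at 4000 UMIs the DN4 γδ− median was 0.048, and without the 8% of barcodes with the most UMIs the medians were 0.28 in DN3a, 0.40 in DN4 γδ+ and 0.14 in Lat-KO DN3 γδ−. DN3b γδ+ was the exception, with 14 members higher and 31 lower (all genes 42.8% higher) and a median of -0.050, close to the -0.046 of all genes. That sign depended on the scaling, since TMM factors gave 0.27 with 44 members higher. TMM factors shift every gene of a comparison by the same amount, so the members stayed as close to the median of all genes. The share of all genes higher under these factors is not given. By gene, Nop58, Nolc1 and Nop56 were most raised in positive barcodes of DN4 γδ+, at 1.35 (95% interval 1.28 to 1.42), 1.20 (95% interval 1.10 to 1.30) and 1.14 (95% interval 1.06 to 1.22), where Ubtf, Polr1a and Polr1c lay at -0.15, -0.011 and 0.057. The highest and lowest member elsewhere were Bysl and Polr1c in DN3b γδ− (0.58 and -0.14), Rrp12 and Pes1 in DN4 γδ− (1.16 and 0.092), Polr1c and Noc3l in DN3b γδ+ (0.16 and -0.43), Rrp12 and Rrp1 in Lat-KO DN3 γδ− (-0.0037 for Rrp1), and Nolc1 and Wdr12 in γδint (0.82 and -0.049). Positive barcodes were also deeper, with medians of 12113 to 19996 UMIs against 4438 to 7658, and the part of depth in these ratios was not tested.

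**Figure D3:**
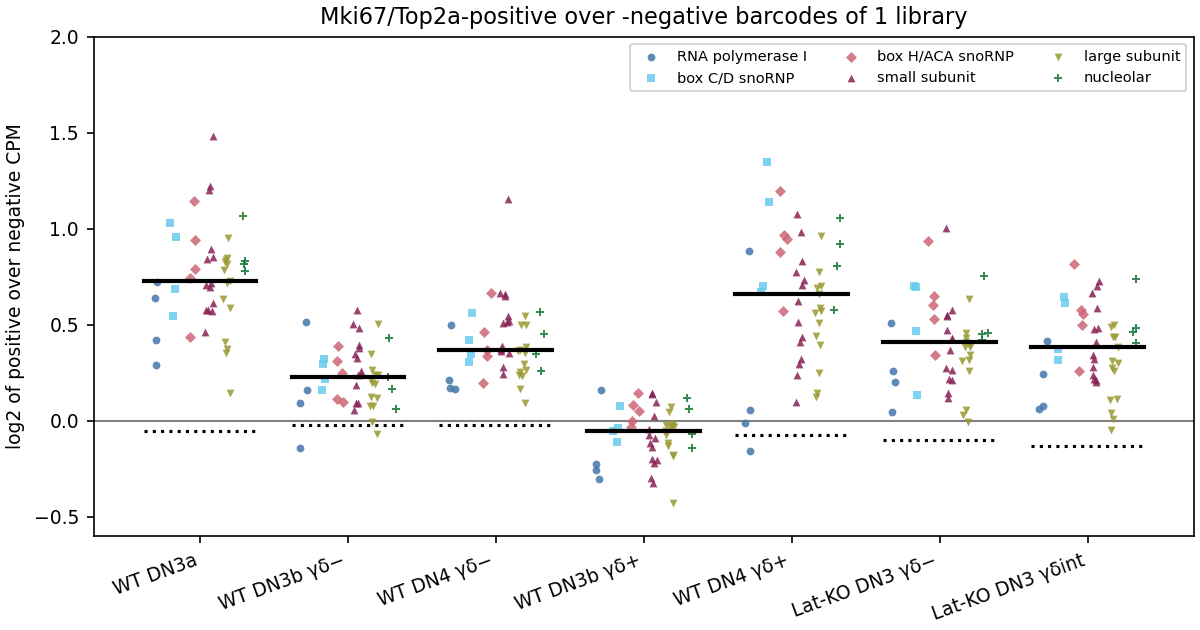
The y axis gives the log2 ratio of a member's CPM in Mki67/Top2a-positive over negative barcodes of the same library; symbols mark roles, solid bars member medians and dotted bars medians of all genes. Points sit mostly above 0 in every library but DN3b γδ+, where they straddle it around a median of -0.050 (TMM factors gave 0.27 and would move the dotted bar by the same amount).

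Positive barcodes compared across libraries gave values that depended on the deepest barcodes. The median was 0.35 in DN3b γδ− (38 members higher, all genes 44.0%), 0.060 in DN4 γδ− (30 higher, all genes 35.3%) and -0.0060 in DN3b γδ+ (22 higher, all genes 43.7%), and under TMM factors 0.59, 0.38 and 0.20 with 43, 44 and 32 members higher. Counts under TMM factors, here and below, have no share of all genes beside them, and all genes of a comparison shift alike. Without the 8% of barcodes with the most UMIs the 3 medians were 0.77, 0.64 and 0.49, and those of DN4 γδ+, Lat-KO DN3 γδ− and γδint, described next, were -0.59, -0.0015 and 0.82. Gar1 had the highest ratio in each of the 3, at 0.91, 0.63 and 0.71, with Noc4l and Nolc1 next in DN3b γδ−, Ncl and Npm1 in DN4 γδ−, and Rrp1 and Polr1c in DN3b γδ+. The lowest were Utp20, Ebna1bp2 and Nip7, then Utp20, Heatr1 and Noc3l, then Polr1b, Polr1a and Wdr12. DN4 γδ+ remained low, at -0.91 with 44 of 45 members lower (all genes 52.5%) and 16 at least 2-fold lower (all genes 8.31%), with Wdr12, Nat10 and Polr1b lowest and Polr1c, Rrp1 and Ubtf highest. Lat-KO DN3 γδ− had -0.31 with 34 members lower (all genes 33.3%), from Utp20, Noc3l and Ebna1bp2 up to Rrp1, Noc4l and Bop1. Lat-KO DN3 γδint had 0.27, under the 0.40 of all genes, with 35 members higher (all genes 74.7%), from Nop10, Rrp12 and Noc3l up to Gar1, Rrp1 and Polr1c, and TMM factors turned its median to -0.032 (22 higher). With them Lat-KO DN3 γδ− had 40 members lower. The positive barcodes of DN3a were 420 in number and had lower cycle gene levels than those of the other libraries. Their Mki67 level was 91.6 CPM against 286 to 535, and their Top2a level 323 against 561 to 812.

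In negative barcodes each median had the sign found over all barcodes. Their medians against DN3a were 0.82 in DN3b γδ− (45 members higher, all genes 44.6%, and 11 at least 2-fold, all genes 7.09%), 0.40 in DN4 γδ− (44 higher, all genes 37.7%), 0.77 in DN3b γδ+ (44 higher, all genes 46.1%), -0.78 in DN4 γδ+ (43 lower, all genes 53.0%, and 15 at least 2-fold, all genes 8.56%), 0.055 in Lat-KO DN3 γδ− (27 higher, all genes 73.5%) and 0.65 in Lat-KO DN3 γδint (41 higher, all genes 82.3%, median 0.51). Under TMM factors, which shift all genes alike, the Lat-KO medians were -0.15 with 17 members higher and 0.17 with 31 higher. The shares of all genes higher under these factors are not given. The highest members were Nolc1, Rrp12 and Gar1 in DN3b γδ−, Npm1, Ncl and Gar1 in DN4 γδ−, Rrp12, Bysl and Gar1 in DN3b γδ+, Polr1c, Ubtf and Nip7 in DN4 γδ+, Noc4l, Bop1 and Rrp1 in Lat-KO DN3 γδ−, and Noc4l, Bop1 and Gar1 in γδint. The lowest were Utp4, Utp15 and Ebna1bp2 in DN3b γδ−, Rrp1, Heatr1 and Nat10 in DN4 γδ−, and Wdr12, Pes1 and Polr1b in DN3b γδ+. In DN4 γδ+ they were Wdr12, Polr1b and Gnl3, and in both Lat-KO libraries Noc3l was among them, with Utp15 and Utp20 in DN3 γδ− and Nop10 and Wdr75 in γδint. For Ncl the negative barcodes had 704 CPM in DN3a, 1705 and 1439 in DN3b and DN4 γδ−, and 1466 and 403 in DN3b and DN4 γδ+, so that 3 WT libraries lay above DN3a and DN4 γδ+ below it here too.

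A barcode without Mki67 and Top2a need not be outside the cell cycle, which matters for these values. Of the negative barcodes, 89.6% in DN3b γδ−, 94.9% in DN4 γδ− and 93.6% in DN3b γδ+ held a UMI of at least 1 of 10 other cycle genes, against 18.5% in DN3a. This share was 51.9% in DN4 γδ+, and 24.4% and 57.1% in Lat-KO DN3 γδ− and γδint. A stricter rule, added after the data had been seen, asked for 0 UMIs of 12 cycle genes and at least 4000 UMIs. It left 42, 16 and 26 barcodes in DN3b γδ−, DN4 γδ− and DN3b γδ+, and 952 to 4105 in the other libraries. On these few the median ratio to DN3a was 0.27 in DN3b γδ− (31 members higher, all genes 49.4%; 12 with an interval above 0, all genes 9.17%), 0.081 in DN4 γδ− (25 higher, all genes 58.7%; 2 with an interval above 0, all genes 5.80%) and 0.79 in DN3b γδ+ (37 higher, all genes 53.6%; 22 with an interval above 0, all genes 11.7%). The medians of all genes were -0.0093, 0.18 and 0.073. A gene with 0 UMIs entered as 3 counts, which on 16 barcodes can place weakly expressed genes above DN3a. The background of DN4 γδ− is therefore uncertain on these barcodes, and the members cannot be placed against it. Of the members, 5 were at least 2-fold lower there (all genes 10.3%) and 1 was at least 2-fold higher (all genes 20.7%). The β-selected medians were lower by this rule than by the wider one, and the DN3b γδ+ one was not. With states of Mki67 and Top2a called at 4000 UMIs, by contrast, the DN4 γδ− median in negative barcodes was 0.69, above the 0.40 of the wider rule. Ncl and Npm1, with the most UMIs, were at 0.55 (95% interval 0.38 to 0.72) and 0.82 (95% interval 0.72 to 0.92) in DN3b γδ−, and at 0.80 (95% interval 0.61 to 0.99) and 0.63 (95% interval 0.49 to 0.76) in DN3b γδ+. DN4 γδ+, with 2074 barcodes left, had -0.75 with 43 members lower (all genes 53.7%), and Lat-KO DN3 γδint had 0.69, both close to the values by the wider rule.

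**Figure D4:**
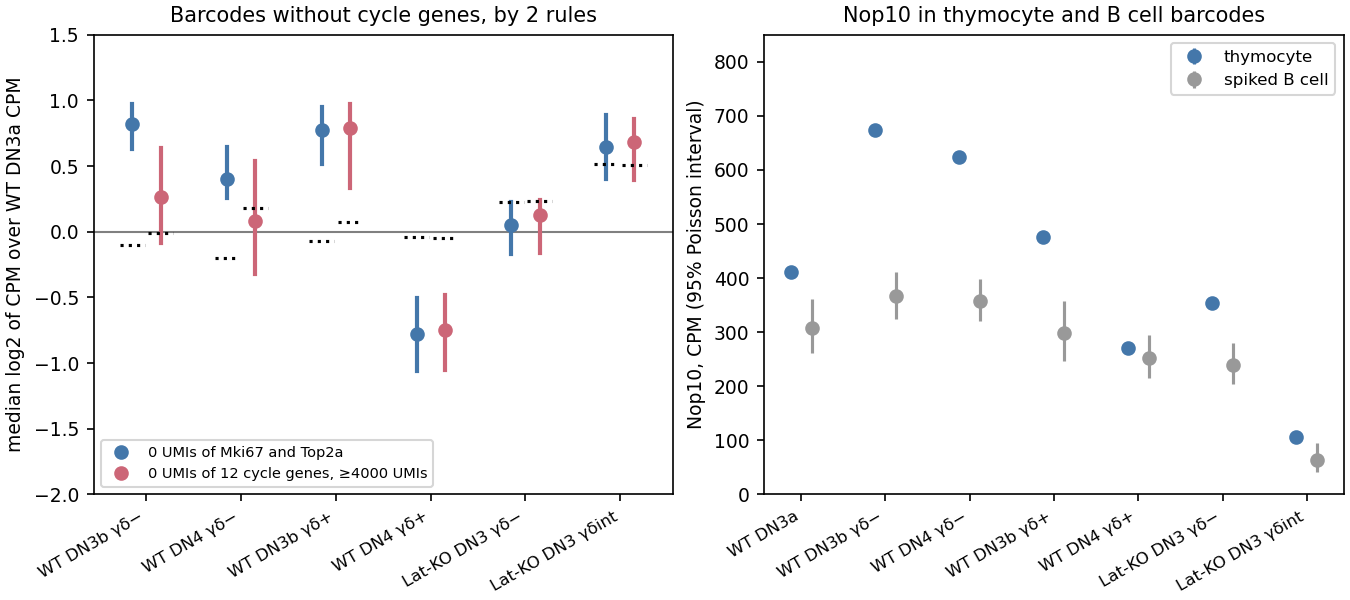
Left, median log2 ratio of the members to WT DN3a in barcodes without Mki67 and Top2a (blue) and by the stricter rule on 12 cycle genes (red), with lines from the lower to the upper quartile over the 45 genes and dotted bars for all genes; the red points of DN3b γδ− and DN4 γδ− lie well under the blue ones. Right, Nop10 in CPM in thymocyte (blue) and spiked B cell barcodes (grey) of each library with exact Poisson 95% intervals, lowest in Lat-KO DN3 γδint in both.

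Single barcodes showed how wide each library was. In negative barcodes the median share of UMIs in the members was 0.453% in DN3a (quartiles 0.354% and 0.583%), 0.974% in DN3b γδ− (0.701% and 1.21%), 0.880% in DN3b γδ+ (0.599% and 1.11%), and 0.303% in DN4 γδ+ (0.236% and 0.386%). It was 0.869% in DN4 γδ− (0.618% and 1.14%), 0.474% in Lat-KO DN3 γδ− (0.367% and 0.600%) and 0.692% in γδint (0.530% and 0.879%). The upper quartile of DN4 γδ+ lay under the lower quartile of DN3b γδ+, and above that of DN3a. The widest spread in a class was that of positive barcodes of DN3a, from 0.296% at the 5th to 1.48% at the 95th percentile around a median of 0.699%. Cells of 1 library are not replicates, and these ranges describe the cells of that library.

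**Figure D5:**
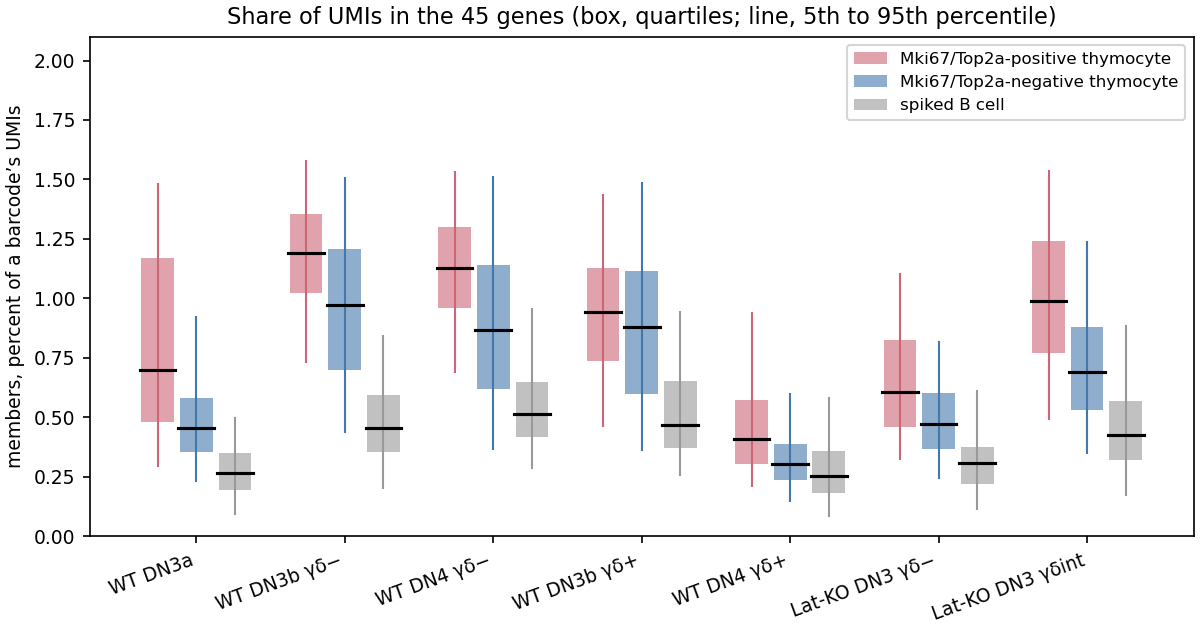
The y axis is the percent of a barcode's UMIs that fell in the 45 genes, by library and class; boxes span the quartiles, black bars are medians and thin lines run from the 5th to the 95th percentile of barcodes. In positive barcodes DN3b γδ− has the highest median, 1.19%, and DN4 γδ+ the lowest, 0.409%.

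B cells from spleen had been spiked into every library, so that their values can be set beside those of the thymocytes. The B cell barcodes of the libraries were not alike in B cell genes. Their Cd79a level ran from 1053 CPM in DN4 γδ− to 3935 in Lat-KO DN3 γδint, with 2306 in DN3a. Ms4a1 ran from 487 CPM in DN4 γδ− to 1500 in Lat-KO DN3 γδint. Over 1323 B cell barcodes, 130 to 306 a library, the members' median log2 ratio to DN3a was 0.79 in DN3b γδ− (all genes 0.27), 0.75 in DN4 γδ− (0.26), 0.75 in DN3b γδ+ (0.13), 0.035 in DN4 γδ+ (0.035), and 0.37 and 0.90 in Lat-KO DN3 γδ− and γδint (0.17 and 0.54). In DN4 γδ+ the B cell median was thus close to 0, where the thymocyte median was -0.60. In DN3b γδ−, DN4 γδ− and DN3b γδ+ the B cell medians were about as high as the thymocyte ones, and 17 of 45, 15 of 45 and 10 of 44 members with a ratio had an interval above 0 (Rrp12, with 2 UMIs in DN3b γδ+ and 1 in DN3a, was under the count limit for a ratio), beside 13.4%, 15.4% and 10.4% of all genes. The Lat-KO DN3 γδint median was higher in B cells than the 0.75 of thymocytes, and against Lat-KO DN3 γδ− it was 0.57 (all genes 0.31) with 38 members higher (all genes 68.4%), where thymocytes had 0.60. The same barcodes held UMIs of thymocyte genes. Lat had 86.1, 76.5 and 85.3 CPM in them, against 41.4 in DN3a and 30.2 in DN4 γδ+. It is no gauge in the Lat-KO libraries, whose thymocytes lack it. The 10 T cell markers summed to 613, 731 and 810 CPM, against 437 in DN3a, 441 in DN4 γδ+, and 331 and 683 in Lat-KO DN3 γδ− and γδint. Top2a had 124, 149.9 and 158 CPM, against 8.28 in DN3a, 38.2 in DN4 γδ+, and 4.47 and 61.8 in Lat-KO DN3 γδ− and γδint. The part of free RNA, of mixed droplets and of the libraries themselves in the differences between groups was not tested.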

How the data were processed

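Sorted DN thymocytes of 7 groups, each with spiked splenic B cells, were measured by droplet single-cell RNA sequencing with 10x 3' version 3 chemistry. The authors deposited raw UMI counts per gene and barcode, made with Cell Ranger (4.0.0 per the file headers and 5.0.1 per the submitters' processing notes) on the mm10 mouse genome with an added Trdc-GFP feature. The notes also name R 3.6.3 and Seurat 3.1.5. The counts are neither normalized nor filtered for doublets, and no doublet caller was run here.

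Counts were read and summed with Python 3.11.15, numpy 2.4.6, scipy 1.17.1 and pandas 2.3.3. The quality limits of the study (200 genes or more, mitochondrial UMIs up to 15%) were applied to barcodes. Thymocyte barcodes had at most 1 UMI of Cd79a, Cd79b and Ms4a1. For a B cell barcode, 10 B cell markers had to reach 10 UMIs with no more than 2 of Cd3d, Cd3e and Cd3g. The thymocyte and B cell rules do not exclude each other, so a barcode can count in both classes, and how many do is not given. UMIs were summed per library and class and given per 1000000 UMIs of that sum (CPM). Levels were compared between libraries only, since 3' counts do not set genes against each other. Log2 ratios carry exact conditional binomial 95% intervals and levels exact Poisson ones, which cover counting error only, and a count of 0 entered a ratio as 3 counts. With 1 library per group no test was run. The background was all genes with a mean of at least 5 CPM over the libraries, and "called" means at least 2-fold. TMM factors came from edgeR 4.0.16 in R 4.3.3 on the summed counts. The ratio script was tested on simulated data with known folds.

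Every member is named once in the group of its role. For each comparison with DN3a the 3 highest and 3 lowest members were also named, as were the members past 2-fold in DN4 γδ+ and Nop10, and the statements on single genes beyond these were chosen after their values were seen. The members and lists were chosen with earlier results of these data known. The positions and promoter windows are those of GRCm38, the latter from RefSeq (GRCm38.p6).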

Additional observations from a re-analysis of the deposited data

Results flagged for a closer look

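The median log2 ratio of Mki67/Top2a-positive over negative barcodes was -0.050 in DN3b γδ+, with 14 of 45 members higher and 31 lower, whereas it was above 0 in the other 6 libraries (0.23 to 0.73). It was singled out because its sign was opposite to theirs. The difference between the libraries was not tested, as each group had 1 library. With TMM factors the DN3b γδ+ value was 0.27 with 44 members higher, which gave it the sign of the others. All genes shift by the same amount under these factors, so the members' distance from the median of all genes did not change. With states called at 4000 UMIs it was -0.23, and DN3b γδ− and DN4 γδ− then had -0.020 and 0.048, so that under that setting the sign was not opposite in DN3b γδ+ alone. Of the negative barcodes, 93.6% held a UMI of another cycle gene in DN3b γδ+, 94.9% in DN4 γδ− and 89.6% in DN3b γδ−.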

How the results depend on the processing

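No paired analysis was possible because each group had 1 library. For the same reason no replicate could be left out. All values are member medians on the log2 scale, against DN3a unless said otherwise, and moves were judged against the median of the members' counting intervals or, for counts, against a factor of 1.5. With TMM factors, DN3b γδ−, DN4 γδ−, DN3b γδ+, Lat-KO DN3 γδ− and Lat-KO DN3 γδint had 1.19, 1.05, 0.90, -0.15 and 0.33, and the members at least 2-fold higher numbered 37, 26 and 20 in the 3 WT libraries and 0 in Lat-KO DN3 γδint, beside 18.3%, 14.6%, 17.1% and 4.19% of all genes. Positive barcodes then gave 0.59, 0.38 and 0.20 in the WT libraries and -0.032, a reversed sign, in Lat-KO DN3 γδint, and negative ones -0.15 and 0.17 in the Lat-KO libraries. DN4 γδ+ against DN3b γδ+ was -1.57 and γδint against Lat-KO DN3 γδ− 0.35. Positive over negative barcodes gave 0.67 and 0.81 in DN3b and DN4 γδ−, 0.27 in DN3b γδ+ and 0.58 in Lat-KO DN3 γδint. TMM factors shift all genes of a comparison by the same amount, so the members' distance from all genes did not move.

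Without ribosomal protein and mitochondrial genes in the total, DN3b γδ− had 0.75, DN3b γδ+ 0.41, and the Lat-KO libraries -0.11 and 0.41, with 2 members at least 2-fold higher in γδint. Positive barcodes of γδint then gave -0.028, again reversed, negative ones of the Lat-KO libraries -0.080 and 0.32, DN3b γδ+ against DN3b γδ− -0.47 and γδint against Lat-KO DN3 γδ− 0.40. With each barcode weighed the same, the medians were 0.96 in DN3b γδ−, 0.74 in DN4 γδ− and 0.74 in DN3b γδ+ (6 members at least 2-fold higher), 0.15 and 0.43 in positive barcodes of DN3b γδ+ and Lat-KO DN3 γδint, -1.39 for DN4 γδ+ against DN3b γδ+, and 0.47 for positive over negative barcodes in DN4 γδ+. Without the 8% of barcodes with the most UMIs, a stand-in for a doublet caller, they were 1.02 in DN3b γδ− (23 members at least 2-fold higher), 0.83 in DN4 γδ−, 0.74 in DN3b γδ+ (10 members), 0.12 in Lat-KO DN3 γδ− and 0.87 in γδint, and in positive barcodes 0.77, 0.64, 0.49, -0.59, -0.0015 and 0.82 in library order. DN4 γδ+ against DN3b γδ+ was then -1.44, and positive over negative barcodes gave 0.28 in DN3a, 0.40 in DN4 γδ+ and 0.14 in Lat-KO DN3 γδ−. For the counts of members at least 2-fold higher in this paragraph, the shares of all genes under the same settings are not given. These counts therefore cannot be read against a background.

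With states called at 4000 UMIs, negative barcodes of DN4 γδ− had 0.69, and positive over negative barcodes gave 0.55 in DN3a, -0.020 in DN3b γδ−, a reversed sign, 0.048 in DN4 γδ− and -0.23 in DN3b γδ+. The stricter rule on 12 cycle genes, chosen after seeing the data, gave 0.27 in DN3b γδ− and 0.081 in DN4 γδ−. The cause was not tested for any of these moves. Asking for at least 5 UMIs of T cell markers left all 41 values in place, as did members with a mean of at least 20 CPM and, chosen after seeing the data, members with a principal transcript of at least 2000 bases, for 6 values each. The lower DN4 γδ+ level kept its sign under every setting run. Without a filter on low genes, 7 of 12 background counts moved.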
